A study of Homo sapiens with 9 samples.

Results

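Neuroectoderm made from H9 cells was compared with undifferentiated H9 human embryonic stem cells (hESC) across every gene of the deposited expression table, with 3 libraries in each group out of the 9 in the series. H9 is an established human embryonic stem cell line, so both groups share one genetic background. The hESC libraries (day 0) came from cells kept on Matrigel in mTeSR1 medium. The neuroectoderm libraries (day 5) came from H9 cells given 200 nM NOGGIN, a secreted antagonist of bone morphogenetic proteins, and 10 μM SB431542, an inhibitor of the activin, nodal and TGF-beta receptor kinases. The medium used with these 2 agents is not given in the sources used here, so an effect of medium and an effect of cell fate cannot be told apart. The other 3 libraries of the series, mesendoderm (day 5) made with 5 ng/ml hBMP4 in mTeSR1, entered the same model and are quoted only where they place a neuroectoderm value. The labels do not say that replicates came from separate cultures, so the p-values measure the spread between these libraries, which may be technical.

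Each gene symbol was represented by its transcript row with the highest mean over the 9 libraries, which gave 21417 symbols. Of these, 14473 had a mean of at least 0.5 RPKM (reads scaled by transcript length and library size) and were tested with limma on log2(RPKM + 1). At an adjusted p under 0.05, 6392 genes or 44.2% differed, 3165 of them higher in neuroectoderm (21.9%) and 3227 lower (22.3%). A fold change on the log2(RPKM + 1) scale understates the change of a gene with low values. To go beyond single leading genes, 5638 symbols were placed in 96 families of surface proteins, transporters, chromatin proteins, RNA-processing proteins, noncoding RNAs and a few other groups, and 4004 of them passed the filter on low values.

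**Figure D1:**
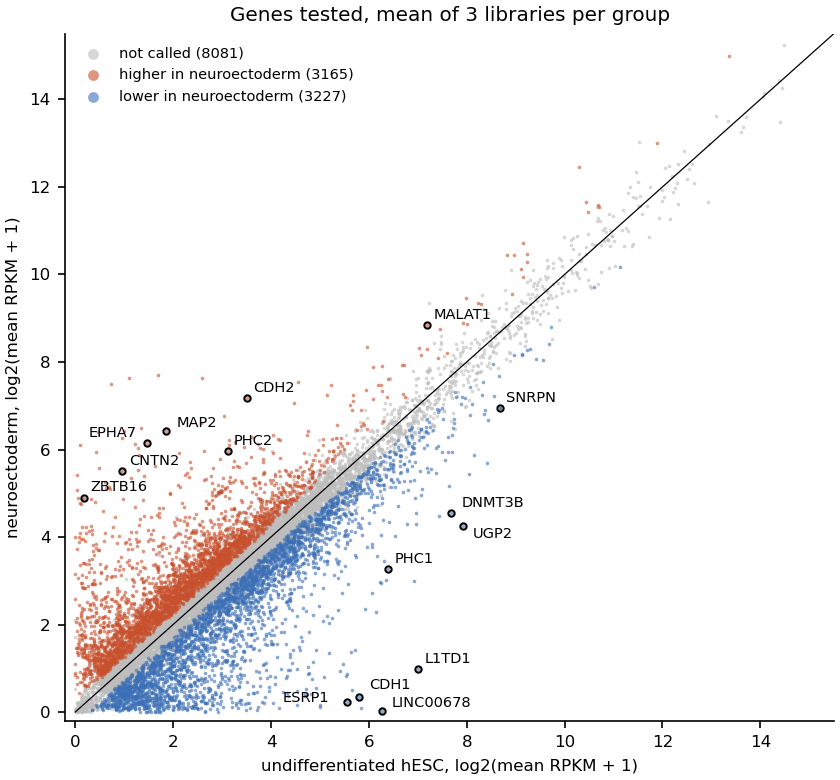
Mean level of each tested gene in undifferentiated hESC (x axis) and neuroectoderm (y axis), both as log2(mean RPKM + 1) over 3 libraries. The 3165 genes called higher in neuroectoderm lie above the line of equal level, the 3227 called lower lie below it, and 15 genes named in the text are ringed.

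The neuroectoderm is the sheet of embryonic ectoderm from which the brain, spinal cord and neural crest arise. Stem cells of the human epiblast type form an epithelium joined by E-cadherin, while the neural plate that replaces it is held together by N-cadherin and becomes patterned by repulsive and attractive surface proteins. Blocking bone morphogenetic protein and nodal signalling together is the usual way to lead such stem cells to this fate in culture.

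The markers matched the label. PAX6, a neural plate transcription factor, was at 0.07, 0.11 and 0.10 RPKM in hESC and at 20.1, 33.4 and 31.5 RPKM in neuroectoderm. SOX1 read 1.11, 0.52 and 0.67 RPKM against 16.7, 21.9 and 24.6 RPKM, and PAX3, a gene of the dorsal neural tube, read 0.02, 0.05 and 0.12 RPKM against 48.3, 82.8 and 73.1 RPKM. No library of either group overlapped the other for these 3 genes. Pluripotency markers summed to 305 to 315 RPKM in hESC and 39.7 to 43.9 RPKM in neuroectoderm, where 3 of 5 had means under 1 RPKM. All 5 primitive streak markers (T, MIXL1, EOMES, GSC, MESP1) had neuroectoderm means under 1 RPKM, with a summed level of 0.66 to 0.97 RPKM in neuroectoderm and 0.26 to 0.64 RPKM in hESC. Under 1 RPKM were also 4 of 5 mesoderm markers, 4 of 5 definitive endoderm markers, all 6 trophoblast and amnion markers in the table, 4 of 5 endothelium and blood markers and 4 of 5 placode and surface ectoderm markers. Of the exceptions, the endoderm marker CXCR4 rose (values below among the surface proteins), the mesoderm marker MEOX1 rose from 0.03, 0.10 and 0.02 RPKM to 1.38, 2.79 and 2.41 RPKM, the surface ectoderm marker GRHL3 rose from 0.96, 0.70 and 0.45 RPKM to 1.81, 2.49 and 2.63 RPKM, and the endothelial marker KDR fell to a mean of 3.61 RPKM. The part of cells of these types in the results was not tested. Among neural crest markers, TFAP2B rose from a mean of 0.0167 to 1.75 RPKM and TFAP2A from 0.107 to 0.620 RPKM. SNAI2 read 0.157 and 1.95 RPKM (adjusted p = 0.0425, with 0.000281 to 0.115 over its 20 settings). FOXD3 (5.32 to 0.857 RPKM) and ERBB3 (16.5 to 1.38 RPKM) fell, and SOX10, a defining crest factor, was not called, at 1.12, 0.95 and 1.45 RPKM against 0.49, 1.01 and 1.25 RPKM. Of 7 neuron markers, TUBB3 was lower in neuroectoderm, at 44.4, 18.8 and 43.6 RPKM in hESC against 2.64, 18.1 and 13.8 RPKM (adjusted p = 0.0363, with 0.000131 to 0.114 over its 20 settings). It made up most of their summed level, 22.5 to 47.6 RPKM in hESC and 8.93 to 24.03 RPKM in neuroectoderm. The other 6 had higher means in neuroectoderm, all at low levels: STMN2 rose from 1.64 to 3.07 RPKM, DCX read 1.19 and 1.49 RPKM, and the defining factor NEUROD1 read 0.02 and 0.0967 RPKM. In bulk RNA, fewer cells that express a gene and less RNA per cell cannot be told apart.

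One library of each group stood apart from its partners, hESC replicate 2 and neuroectoderm replicate 1, and their deviations from the group means ran together across genes (Pearson r = 0.787 over genes, which are not independent). Small RNA genes moved with this: summed box C/D snoRNAs outside the imprinted clusters read 283629, 420982 and 324223 RPKM in hESC replicates 1 to 3, and 603709, 184977 and 310131 RPKM in neuroectoderm. With small RNA genes left out and the remaining genes rescaled, the split became 2060 higher and 3518 lower, 36.9% higher among the genes called against 49.5% as deposited, and the median log2 change of all genes moved from -0.02 to -0.12. Without the 3 libraries that stood apart (including mesendoderm replicate 1), 4437 genes were higher and 3980 lower.

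**Figure D2:**
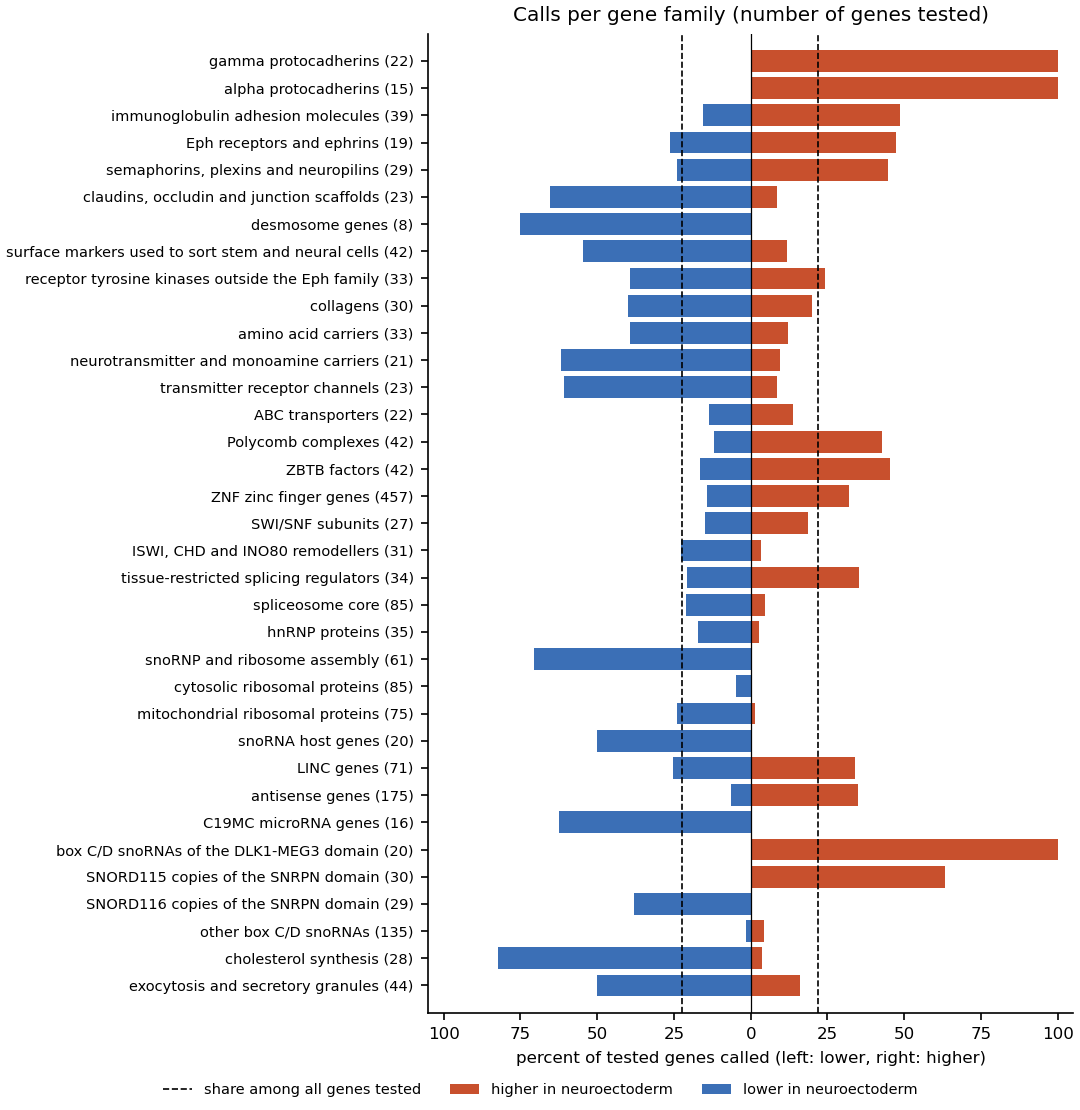
Percent of tested genes called higher (right) and lower (left) in neuroectoderm for 35 of the families, with the number tested in parentheses. The dashed lines mark the shares among all genes tested, 21.9% higher and 22.3% lower. Alpha and gamma protocadherins and the box C/D snoRNAs of the DLK1-MEG3 domain reach 100% on the right, while cytosolic ribosomal proteins stay close to 0. The protocadherins within a cluster share exons and are not separate measurements, and only 4 of 15 alpha members passed with small RNA genes left out. The snoRNAs passed the filter mostly through their neuroectoderm values, so their 100% adds nothing to their levels.

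Adhesion proteins of the cell surface changed in both directions. Among classical and type II cadherins, 7 of 14 tested rose and 3 fell. CDH1, the E-cadherin of epithelia, read 52.0, 52.2 and 59.8 RPKM in hESC and 0.38, 0.14 and 0.29 RPKM in neuroectoderm, a log2 change of -5.46 ± 0.12 (SE, adjusted p = 1.61e-08). CDH2, the N-cadherin of the neural plate, went the other way, from 10.6, 10.7 and 9.94 RPKM to 113.87, 162 and 155 RPKM (3.65 ± 0.15, adjusted p = 3.55e-07). The 2 groups did not overlap for either gene, and CDH2 in neuroectoderm (mean 144 RPKM) exceeded CDH1 in hESC (mean 54.7 RPKM) on this length-scaled unit. CDH3, the P-cadherin, fell with CDH1, from a mean of 35.5 to 1.54 RPKM. CDH6 and CDH11, type II cadherins found in neural and mesenchymal tissue, rose from 0.517 to 8.84 RPKM and from 1.92 to 21.0 RPKM.

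Clustered protocadherins, single-pass adhesion proteins that give neurons surface identities, are encoded in 3 clusters. All 22 gamma members were called higher, with a median log2 change of 2.05 where the median of all genes was -0.02, but gamma transcripts share their last exons, so that reads of those exons cannot be assigned to one member and the 22 are not separate measurements. PCDHGC3, the most abundant of them, read 12.9, 10.2 and 16.8 RPKM in hESC and 40.3, 75.7 and 74.1 RPKM in neuroectoderm. The lowest neuroectoderm library was above the highest hESC library. The 15 alpha members, which also share exons, were all called higher with a smaller median of 0.58, and only 4 of the 15 passed when small RNA genes were left out. Of 7 beta members tested, which are single-exon genes, 3 rose and 1 fell (5 rose without neuroectoderm replicate 1, and none fell when hESC replicate 1, 2 or 3 or neuroectoderm replicate 3 was left out). The summed level of all 18 beta genes was 20.9, 18.7 and 20.3 RPKM in hESC and 22.4, 32.0 and 30.4 RPKM in neuroectoderm, with no overlap. Outside the clusters, PCDH8 rose from a mean of 0.487 to 4.98 RPKM while PCDH1 fell from 65.8 to 13.4 RPKM.

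Epithelial junction genes mostly fell. Of 23 claudins, junction adhesion molecules and junction scaffolds, 15 fell and 2 rose, and of 8 desmosome genes 6 fell and none rose (22.3% of all genes fell). CLDN6, a claudin of embryonic epithelia, read 131, 102 and 129 RPKM in hESC and 4.83, 8.76 and 7.31 RPKM in neuroectoderm (-3.96 ± 0.21, adjusted p = 1.11e-06). CLDN7 ended near 0, at 0.06, 0.23 and 0.16 RPKM from 17.2, 11.5 and 17.6 RPKM. TJP1, which encodes the cytoplasmic scaffold ZO-1 that neuroepithelia also use, was one of those not called, at 38.0, 45.9 and 42.4 RPKM against 45.6, 40.7 and 43.9 RPKM. Among the desmosome genes DSG2, a desmosomal cadherin, went from a mean of 23.7 to 9.49 RPKM and DSP, the desmosomal plaque protein, from 14.1 to 6.11 RPKM. The membrane serine proteases ST14 (matriptase) and PRSS8 (prostasin), which act at epithelial junctions, fell from 12.1 to 0.38 RPKM and from 34.4 to 3.59 RPKM.

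Of immunoglobulin-type adhesion molecules, 19 of 39 were higher and 6 lower. PRTG (protogenin), a surface protein of the early neural tube, had the highest level among those that rose, at 242, 179 and 200 RPKM in neuroectoderm and 1.83, 2.79 and 2.09 RPKM in hESC. CNTN2 (contactin 2, also called TAG-1), a GPI-anchored axonal protein, read 41.2, 46.7 and 46.0 RPKM against 1.05, 0.87 and 0.94 RPKM, a 46.8-fold difference of means. Neither gene had overlapping groups. NCAM1 (mean 1.90 to 14.6 RPKM), NRCAM (1.48 to 18.4 RPKM) and SDK2 (3.88 to 43.3 RPKM), adhesion molecules of neural cells, rose as well. ST8SIA2, the enzyme that adds polysialic acid to NCAM1, rose from 0.450 to 4.50 RPKM.

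**Figure D3:**
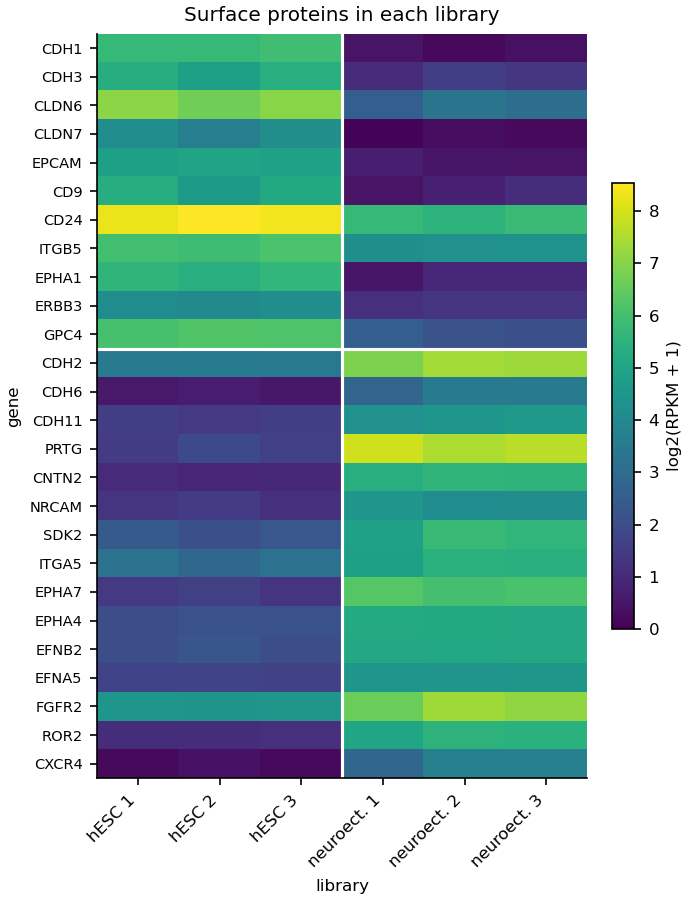
Level of 26 surface protein genes in each of the 6 libraries as log2(RPKM + 1), with 11 that fell above the white line and 15 that rose below it. CDH1, CLDN7 and EPCAM are dark in all 3 neuroectoderm libraries (at most 0.63 RPKM), and PRTG reaches 179 to 242 RPKM there.

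Surface proteins used to sort stem and neural cells fell more often than they rose, 23 against 5 of 42 tested. CD24, a small glycoprotein often taken as a neural marker, was abundant in hESC at 311, 372.85 and 336 RPKM and lower in neuroectoderm at 52.0, 44.5 and 56.1 RPKM. THY1 (CD90) read 91.0, 51.0 and 83.2 RPKM against 7.06, 19.9 and 19.2 RPKM, and the tetraspanin CD9 read 39.1, 24.4 and 35.1 RPKM against 0.37, 0.69 and 1.16 RPKM. EPCAM, an adhesion protein of stem cells and epithelia, had a neuroectoderm mean of 0.47 RPKM from 29.1 RPKM. CXCR4, the CXCL12 receptor that also serves as an endoderm marker, was among the 5 that rose, from 0.16, 0.35 and 0.16 RPKM to 6.03, 12.2 and 12.2 RPKM, while SOX17 and FOXA2 of the same marker list stayed at or under 0.02 RPKM in each neuroectoderm library. Another tetraspanin, CD82, rose from a mean of 2.30 to 24.4 RPKM.

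Eph receptors and ephrins, which keep neighbouring cell populations apart, had 9 of 19 members higher and 5 lower. EPHA7 gave the largest rise, from 1.65, 2.10 and 1.49 RPKM to 78.0, 63.7 and 66.9 RPKM (4.68 ± 0.14, adjusted p = 7.89e-08). EPHA1 moved downward, from 46.9, 39.5 and 50.0 RPKM to 0.42, 0.98 and 0.95 RPKM (-4.71 ± 0.18, adjusted p = 2.33e-07). Receptor and ligand genes both rose: EPHA4 reached a mean of 35.6 RPKM from 3.30 RPKM, the ephrins EFNB2 and EFNA5 reached 34.5 RPKM from 3.39 RPKM and 21.1 RPKM from 2.29 RPKM. Of semaphorins, plexins and neuropilins 13 of 29 rose and 7 fell, and NRP2, a semaphorin co-receptor, went from 9.93, 8.98 and 12.03 RPKM to 40.8, 55.7 and 56.5 RPKM. Of slits, netrins and their receptors 8 of 18 rose and 2 fell. NEO1 (neogenin) rose from a mean of 11.9 to 30.5 RPKM and its ligand gene RGMB from 3.64 to 24.8 RPKM. ROBO1, the Slit receptor, was not called, at 23.4, 25.4 and 25.9 RPKM against 23.1, 24.1 and 26.1 RPKM.

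Of receptor tyrosine kinases outside the Eph family 13 of 33 were lower and 8 higher (22.3% and 21.9% in all genes). Their median log2 change was -0.085. With a mean of at least 2 RPKM required, 9 were lower and 5 higher. FGFR2 read 21.4, 20.4 and 22.03 RPKM in hESC and 97.7, 160 and 139 RPKM in neuroectoderm (2.55 ± 0.18, adjusted p = 6.53e-06). FGFR4 fell from a mean of 21.6 to 2.89 RPKM, and FGFR1 did not pass the test, at 96.3, 92.2 and 106 RPKM against 70.5, 92.6 and 87.5 RPKM. On this length-scaled unit FGFR2 was above FGFR1 in each neuroectoderm library and below it in each hESC library. ROR2, a WNT5A receptor, rose from 1.17, 1.16 and 1.30 RPKM to 32.0, 44.7 and 42.9 RPKM. The neuregulin receptors ERBB2 and ERBB3 fell from 145 to 46.5 RPKM and from 16.5 to 1.38 RPKM, and the VEGF receptors KDR and FLT1 from 22.2 to 3.61 RPKM and from 10.97 to 0.0733 RPKM.

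Matrix and matrix-binding proteins were divided. GPC4, a glypican of stem cells, fell from 65.3, 73.6 and 71.7 RPKM to 4.92, 3.56 and 3.22 RPKM, while GPC3 stayed at 13.6, 18 and 17.9 RPKM against 15.3, 18.9 and 17.04 RPKM and was not called. Among integrin subunits 6 of 15 fell and ITGA5, the fibronectin receptor alpha chain, was the 1 that rose, from a mean of 7.77 to 37.9 RPKM. ITGB5, part of a vitronectin receptor, fell from 63.0 to 19.1 RPKM. Of 30 collagen genes 12 fell and 6 rose, with COL2A1, a collagen of cartilage and notochordal tissue that early neural tissue also transcribes, at 33.6, 65.8 and 63.8 RPKM in neuroectoderm and 7.62, 5.12 and 7.49 RPKM in hESC. Laminins and matrix glycoproteins split nearly evenly, 17 higher and 15 lower of 46: LAMC3, a laminin gamma chain, fell from 6.94 to 0.187 RPKM, and THBS3, a thrombospondin, rose from 1.16 to 14.5 RPKM. Among 87 glycosyltransferases of surface glycans, 30 fell and 20 rose, and B3GNT7, an enzyme of keratan sulfate chains, went from 20.1, 14.3 and 19.4 RPKM to 0.34, 0.31 and 0.48 RPKM.

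Of 17 P-type cation pumps 8 fell and 4 rose, with 5 falling without hESC replicate 1 or 3. ATP2B1, a calcium pump of the plasma membrane, rose from 5.39, 8.06 and 6.15 RPKM to 46.1, 28.6 and 32.4 RPKM, with no overlap between the groups. SCNN1A, the alpha subunit of the epithelial sodium channel, was at 26.6, 24.8 and 30.5 RPKM in hESC and 0.65, 0.18 and 0.18 RPKM in neuroectoderm (-4.42 ± 0.16, adjusted p = 1.7e-07). PRSS8, described above among the proteases, is a known activator of that channel. KCNK10, a two-pore potassium channel, rose from 0.13, 0.21 and 0.16 RPKM to 7.97, 9.99 and 10.3 RPKM, and KCNG3, a silent potassium channel subunit, fell from a mean of 3.30 to 0.0567 RPKM.

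Transmitter-gated receptor channels fell in 14 of 23 tested and rose in 2. Many were near the filter: with a mean of at least 2 RPKM required the counts were 4 lower and 1 higher, and with no filter 24 lower and 7 higher. P2RX5, an ATP-gated cation channel, fell from a mean of 2.81 to 0.247 RPKM. The intracellular calcium release channels ITPR3 and ITPR2 fell from 10.3 to 0.60 RPKM and from 5.12 to 0.187 RPKM. CACNB3, a beta subunit of voltage-gated calcium channels, rose from 3.73 to 20.8 RPKM. Carriers of transmitters and monoamines fell in 13 of 21 and rose in 2 (4 rose without neuroectoderm replicate 1, and 7 fell and 1 rose with a mean of at least 2 RPKM). Among them was SLC17A9, a vesicular nucleotide carrier, at 6.72, 4.81 and 6.39 RPKM in hESC and 0.19, 0.10 and 0.24 RPKM in neuroectoderm. The 22 ABC transporters had 27.3% called, beside 44.2% of all genes, with 7 rather than 3 higher without neuroectoderm replicate 1, and no aquaporin of the 11 in the table reached the filter.

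Amino acid carriers fell more often than they rose. Of 33 tested 13 fell and 4 rose (22.3% and 21.9% in all genes), with 2 rising without hESC replicate 1 or without neuroectoderm replicate 3. SLC7A3, a carrier of cationic amino acids, read 47.9, 36.2 and 50.1 RPKM against 8.14, 13.5 and 15.4 RPKM, and SLC38A5, a glutamine carrier, fell from a mean of 18.3 to 2.57 RPKM. SLC1A4, which carries alanine and serine, rose from 0.797 to 4.64 RPKM. SLC16A1, the monocarboxylate carrier MCT1, read 102, 132 and 108.37 RPKM against 45.1, 32.3 and 36.6 RPKM, whereas the glucose carriers SLC2A1 (31.4 and 33.6 RPKM) and SLC2A3 (46.4 and 51.2 RPKM) were not called. SLC25A1, the mitochondrial citrate exporter that supplies carbon for lipid synthesis, fell from 55.7, 34.6 and 53.7 RPKM to 9.84, 17.3 and 15.4 RPKM. The creatine carrier gene SLC6A8 went up, from 21.7 to 44.9 RPKM.

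Most genes of cholesterol synthesis and uptake fell: 23 of 28 were lower, 19 of them by at least 1 log2 unit, with a median log2 change of -1.36. In the 20 alternative settings the count of lower genes was 23 or 24. DHCR7, an enzyme of the last sterol steps, read 42.3, 40.2 and 43.2 RPKM in hESC and 6.11, 9.63 and 9.11 RPKM in neuroectoderm (-2.23 ± 0.17, adjusted p = 1.05e-05). HMGCS1, an enzyme at the start of the mevalonate pathway, read 57.3, 65.1 and 60.9 RPKM against 12.4, 11.9 and 13.8 RPKM. No neuroectoderm library reached the lowest hESC library for either gene. FDFT1 (136 to 33.3 RPKM), which makes squalene, and MVD (39.9 to 9.82 RPKM), of the mevalonate pathway, fell as well. SREBF2, which encodes the sterol-sensing transcription factor SREBP-2 and was chosen after its values were seen, fell from 88.2, 84.5 and 95.0 RPKM to 33.9, 56.8 and 56.2 RPKM. INSIG2, a protein that holds SREBP in the endoplasmic reticulum, was the 1 gene that rose (2.13 to 3.80 RPKM). SCAP, the SREBP escort protein, was not called, at 31.8, 27.7 and 35.1 RPKM against 22.2, 38.8 and 34.8 RPKM.

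Neuroectoderm was also lower than mesendoderm in 24 of the 28 genes (24.1% of all genes tested were) and higher in 1, and mesendoderm means were 62.0 RPKM for DHCR7, 62.5 RPKM for HMGCS1 and 174 RPKM for FDFT1. Mesendoderm was made in mTeSR1, the medium of the hESC, while the medium of the neuroectoderm is not given. Promoters of 21 of the 28 genes, 250 bases before to 50 after the start site from RefSeq on GRCh38.p14, were searched on both strands for TCACNCCAC, a form of the sterol regulatory element. It was in 1 of the 21, SREBF2, and in 1.13% of all 35116 promoters. The stretch that holds it is shown to place the element, chr22:41832932-41833020 on the + strand of GRCh38.p14, upstream of the SREBF2 start, 5′ to 3′ with the matching letters in capitals.
SREBF2 promoter: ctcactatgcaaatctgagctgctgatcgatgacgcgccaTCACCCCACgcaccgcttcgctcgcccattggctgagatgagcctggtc
A missing match says only that these letters are not in the window.

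**Figure D4:**
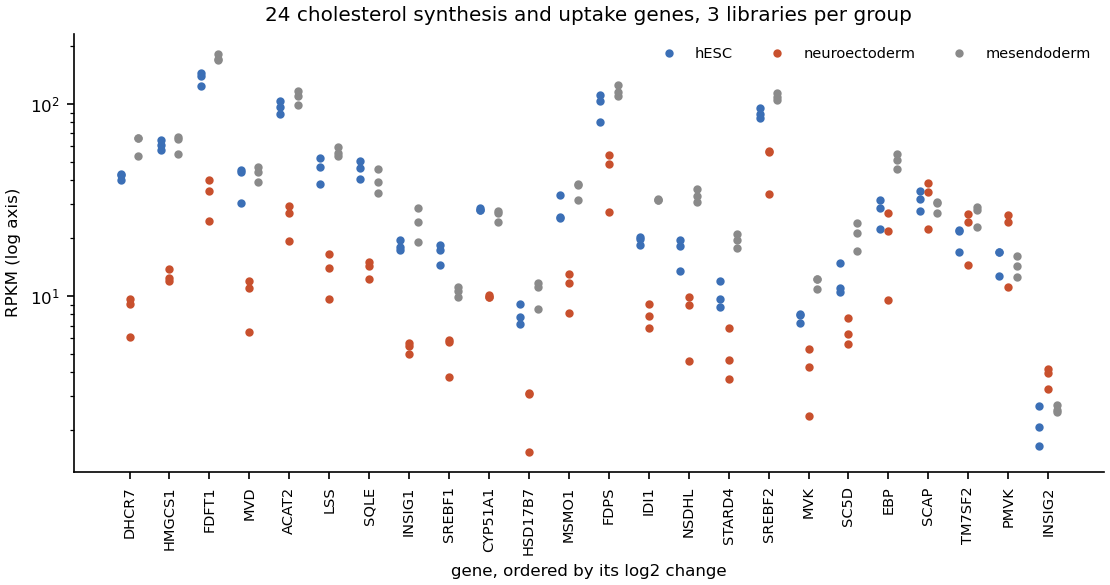
RPKM (log axis) of 24 of the 28 genes of cholesterol synthesis and uptake in each library of hESC, neuroectoderm and mesendoderm, ordered by their log2 change between neuroectoderm and hESC. All 3 neuroectoderm points lie below all 3 hESC points for 19 of the genes shown, and for HMGCS1 the mesendoderm mean of 62.5 RPKM lies beside the hESC mean of 61.1 RPKM.

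Chromatin genes changed in both directions within families. DNMT3B, the de novo DNA methyltransferase of the epiblast, fell from 204, 189 and 217 RPKM to 16.5, 25.6 and 25.3 RPKM (-3.15 ± 0.20, adjusted p = 3.91e-06). DNMT3A, its paralog, was not called as deposited (58.7, 56.5 and 61.8 RPKM against 34.8, 49.3 and 48.7 RPKM, adjusted p = 0.0554) but passed in 6 of 20 alternative settings, with adjusted p from 0.00995 to 0.152. TET2, a dioxygenase that oxidises methylcytosine, rose from a mean of 0.607 to 3.15 RPKM. The cytidine deaminases APOBEC3B and APOBEC3C fell from 4.29 to 0.107 RPKM and from 9.90 to 1.64 RPKM.

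Polycomb genes, which encode the complexes that place repressive histone marks, rose in 18 of 42 and fell in 5 (21.9% and 22.3% in all genes). Across the 20 alternative settings the number that rose was 12 to 24, and 3 fell without hESC replicate 3 or without neuroectoderm replicate 3. The most opposed pair were paralogs of one PRC1 subunit: PHC1 read 76.8, 80.8 and 91.0 RPKM in hESC and 8.69, 9.03 and 8.02 RPKM in neuroectoderm, while PHC2 read 7.45, 7.07 and 8.47 RPKM against 52.0, 69.6 and 63.1 RPKM. PHC1 was the more abundant of the pair in every hESC library and PHC2 in every neuroectoderm library. BMI1, a PRC1 ring finger protein, rose from 1.26 to 6.33 RPKM, CBX8, a chromodomain subunit, from 0.357 to 3.14 RPKM, and ASXL1, of the H2A deubiquitinase complex, from 6.07 to 25.2 RPKM. BCOR, of a variant PRC1, fell from 19.1 to 4.76 RPKM and JARID2, a PRC2 cofactor, from 53.6 to 19.1 RPKM. The H3K27 demethylases moved apart as well, with KDM6B at 0.49, 0.38 and 0.68 RPKM in hESC and 3.56, 5.31 and 4.33 RPKM in neuroectoderm, and KDM6A at 12.01, 15 and 13.4 RPKM against 5.69, 5.04 and 5.05 RPKM.

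Among histone and nonhistone chromatin proteins, H2AFY2 (macroH2A2) rose from 17.9, 15.04 and 18.3 RPKM to 50.1, 89.1 and 81.6 RPKM and the linker histone H1F0 from a mean of 25.9 to 84.4 RPKM. HMGB2, a high mobility group protein of dividing cells, rose from 82.5 to 195 RPKM. Of 31 ISWI, CHD and INO80 remodellers 7 fell and 1 rose (25.8% called, beside 44.2% of all genes). Without neuroectoderm replicate 1, 5 of them rose. Of 27 SWI/SNF genes 5 rose and 4 fell (33.3% called), although without neuroectoderm replicate 1 the number that rose was 12. Within SWI/SNF, BCL11A, an accessory subunit and transcription factor, fell from 6.31, 6.02 and 5.79 RPKM to 0.11, 0.15 and 0.07 RPKM, while the core subunit SMARCC1 was not called (71.2 and 68.8 RPKM). Genes named ZNF were higher in 147 of 457 and lower in 65, and in 82 and 66 with small RNA genes left out, so that their balance depended on the scaling. ZNF521, a multi-finger protein of neural progenitors, rose from 5.13, 6.23 and 6.11 RPKM to 45.8, 37.9 and 38.6 RPKM, and ZNF503 from a mean of 0.03 to 12.3 RPKM. ZBTB factors rose in 19 of 42 and fell in 7. ZBTB16 (PLZF), found in neuroepithelial progenitors, read 0.04, 0.20 and 0.14 RPKM against 23.5, 34.2 and 29.1 RPKM.

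Of 34 RNA-binding proteins that direct tissue-specific splicing, 12 rose and 7 fell. ESRP1, the epithelial splicing regulator, read 42.2, 49.7 and 46.3 RPKM in hESC and 0.17, 0.13 and 0.24 RPKM in neuroectoderm (-5.32 ± 0.12, adjusted p = 1.61e-08). Its paralog ESRP2 fell from a mean of 11.3 to 0.363 RPKM, RBM47, which also acts on epithelial exons, from 11.9 to 0.927 RPKM, and RBPMS2, an RNA-binding protein of smooth muscle and early embryos, from 36.7 to 3.46 RPKM. NOVA1, a neuronal splicing factor, read 2.56, 2.90 and 2.76 RPKM against 5.43, 9.73 and 8.28 RPKM, and MBNL2, a muscleblind protein, rose from 0.687 to 4.99 RPKM. Of 85 core spliceosome genes 25.9% were called, beside 44.2% of all genes, 18 lower and 4 higher (9 lower without hESC replicate 3). Of 35 hnRNP genes 20% were called, 6 lower and 1 higher (6 higher without neuroectoderm replicate 1).

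Among developmental RNA-binding proteins 7 of 33 rose and 7 fell, close to the shares in all genes (21.9% and 22.3%). L1TD1, an RNA-binding protein of stem cells derived from a LINE-1 element, read 114.27, 154 and 114.92 RPKM in hESC and 1.44, 0.70 and 0.77 RPKM in neuroectoderm (-6.03 ± 0.19, adjusted p = 8.74e-08). LIN28A, the let-7 inhibitor that binds L1TD1, was not called, at 279, 341 and 301 RPKM against 285, 264 and 275 RPKM. ZFP36L1, a factor of AU-rich mRNA decay, rose from a mean of 15.9 to 41.3 RPKM while its paralog ZFP36L2 fell from 14.8 to 3.95 RPKM. BTG2, which recruits deadenylases and marks neural progenitors, rose from 0.343 to 4.21 RPKM.

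Ribosome assembly factors were mostly lower. Of 61 genes for snoRNP proteins and ribosome assembly 43 fell and none rose, with a median log2 change of -0.62 (22.3% and -0.02 in all genes), and across the alternative settings 33 to 49 fell and at most 1 rose. DDX21, a nucleolar helicase, read 59.9, 75.2 and 64.3 RPKM against 31.1, 20.3 and 22.9 RPKM, and NOP56, a core box C/D snoRNP protein, 107.93, 79.6 and 111 RPKM against 36.0, 47.1 and 49.3 RPKM. FBL (fibrillarin), the methyltransferase of the same particle, was not called, with hESC replicate 2 at 85.3 RPKM inside the neuroectoderm range of 44.8 to 149 RPKM. Of 20 host genes of snoRNAs 10 fell and none rose, with DANCR at 134.43, 113.86 and 145.53 RPKM in hESC and 32.0, 49.1 and 53.3 RPKM in neuroectoderm, while GAS5 (187 and 174 RPKM) was not called. Of 85 cytosolic ribosomal protein genes 4.71% were called, 4 lower and none higher, with 2 lower without hESC replicate 1 and 18 with a model term for the libraries that stood apart, and the sign of their median turned without neuroectoderm replicate 1. Of 75 mitochondrial ribosomal protein genes 18 fell, close to the share in all genes (22.3%), and 1 rose. The number lower was 11 without hESC replicate 1 or 3 and 42 with that term. The translation factor EIF5A read 393, 279 and 458 RPKM against 88.9, 185 and 169 RPKM, and EEF1A2, the second elongation factor 1-alpha gene, fell from a mean of 5.46 to 0.160 RPKM while EEF1A1 (1209 and 1066 RPKM) was not called.

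MicroRNAs of the embryonic stem cell type are encoded in 3 clusters: the miR-302 cluster, the miR-371 cluster and the primate-specific C19MC cluster. The library kit recovers RNA fragments of a hairpin or of its primary transcript, so these values are not amounts of mature microRNA. Their mature sequences, from RefSeq on GRCh38.p14, are shown because members of all 3 clusters carry one seed, the bases 2 to 8 that pair with targets, in capitals below. The first 8 share AAGUGCU, and the other 4 have different seeds.
miR-302a-3p: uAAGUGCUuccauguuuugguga
miR-302b-3p: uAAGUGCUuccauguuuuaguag
miR-302c-3p: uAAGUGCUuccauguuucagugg
miR-302d-3p: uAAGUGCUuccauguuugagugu
miR-372-3p: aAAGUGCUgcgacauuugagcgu
miR-373-3p: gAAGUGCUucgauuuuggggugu
miR-520c-3p: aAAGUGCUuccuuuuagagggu
miR-520e-3p: aAAGUGCUuccuuuuugaggg
miR-371a-3p: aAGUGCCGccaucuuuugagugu
miR-520f-3p: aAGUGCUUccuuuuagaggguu
miR-519d-3p: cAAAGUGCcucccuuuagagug
miR-520g-3p: aCAAAGUGcuucccuuuagagugu

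The C19MC genes, which differ by few bases and may share reads, were near 0 outside hESC. The 16 of 24 that passed the filter therefore did so mostly through the hESC values. The number of them called lower, 10, adds nothing to their sum. The summed level of all 24 was 54.29, 127.64 and 33.98 RPKM in hESC and 13.5, 1.22 and 5.27 RPKM in neuroectoderm, with no overlap. MIR520C, with the shared seed, read 14.4, 31.3 and 6.29 RPKM against 2.54, 0.16 and 0.27 RPKM (-3.15 ± 0.55, adjusted p = 0.00163). On a hairpin of 80 bases, 3 reads correspond to 0.539 to 0.929 RPKM in these 6 libraries, so the low neuroectoderm values rest on very few reads. MIR520E passed as deposited (adjusted p = 0.0203) but not without neuroectoderm replicate 3 (0.062), with 0.00303 to 0.062 over its settings. MIR371A (2.46 to 0.07 RPKM) and MIR373 (3.79 to 0.237 RPKM) were lower, and both are near that limit in neuroectoderm.

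The miR-302 genes were far more abundant and their test turned on 1 library. MIR302D read 1355, 2209 and 898 RPKM in hESC and 2058, 93.5 and 330 RPKM in neuroectoderm, so that neuroectoderm replicate 1 lay within the hESC range and the other two replicates lay below it. None of the 4 MIR302 genes nor MIR367 was called. Without neuroectoderm replicate 1, all 8 tested genes of the miR-302 and miR-371 clusters were lower, MIR302D by a log2 change of -2.98 (adjusted p = 0.00167, with 0.00167 to 0.422 over its 19 settings). This replicate also had the highest sum of box C/D snoRNAs, given above. The part of that difference in the result was not tested.

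Of the 342 remaining microRNA genes tested, 29 fell and 14 rose, 12.6% in all, and 106 fell without neuroectoderm replicate 1. The 2 shown next changed in opposite directions and kept their calls in every setting that held them. Their seeds are again in capitals.
miR-205-5p: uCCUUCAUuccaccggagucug
miR-219a-5p: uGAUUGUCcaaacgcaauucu
MIR205, a microRNA gene of epithelia, read 8.28, 9.51 and 7.27 RPKM in hESC and 2.24, 0.13 and 0.66 RPKM in neuroectoderm. MIR219-2, a source of the neural microRNA miR-219, read 0.76, 0 and 0 RPKM against 16.5, 3.69 and 6.26 RPKM. The host transcripts of miR-124, an abundant neuronal microRNA, moved in opposite directions. These genes were chosen after their values were seen. LINC00599, which holds MIR124-1, fell from 12.2, 13.3 and 13.9 RPKM to 0.22, 0.15 and 0.14 RPKM, and LINC00966, which lies at MIR124-2, rose from 0.37, 0.37 and 0.30 RPKM to 7.84, 16.3 and 15.8 RPKM. MIR124-1 itself was at 0 in all 3 neuroectoderm libraries from 2.02, 2.30 and 1.48 RPKM, and MIR124-2 rose from a mean of 0.347 to 3.80 RPKM.

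Small nucleolar RNAs of 2 imprinted domains changed. Of the other box C/D snoRNAs 5.93% were called, 6 higher and 2 lower, with 14 lower without neuroectoderm replicate 1 and 12 higher without neuroectoderm replicate 2. The DLK1-MEG3 domain expresses the protein-coding gene DLK1 from the paternal chromosome, and MEG3 and arrays of SNORD113 and SNORD114 copies from the maternal one. The summed level of all 21 snoRNA genes of this domain in the table was 16.4, 22.4 and 19.8 RPKM in hESC, 864, 194 and 484 RPKM in neuroectoderm and 6.99 to 9.65 RPKM in mesendoderm. Within neuroectoderm this sum was highest in replicate 1 and lowest in replicate 2, as was the sum of other box C/D snoRNAs. Replicate 2 was above every hESC library in the sum of this domain. The part of the spread in other small RNA genes in this result was not tested. SNORD113-7 read 1.29, 1.14 and 0.55 RPKM against 143, 27.0 and 86.1 RPKM (5.16 ± 0.51, adjusted p = 5.08e-05). The filter was passed by 20 of the 21, mostly through the neuroectoderm values, so their all being called adds nothing to the sums. DLK1, a Notch-like ligand, read 0.21, 0.26 and 1.17 RPKM in hESC and 38.7, 29.4 and 32.6 RPKM in neuroectoderm. MEG3 remained at 0.68, 0.29 and 0.55 RPKM there and was not tested.

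**Figure D5:**
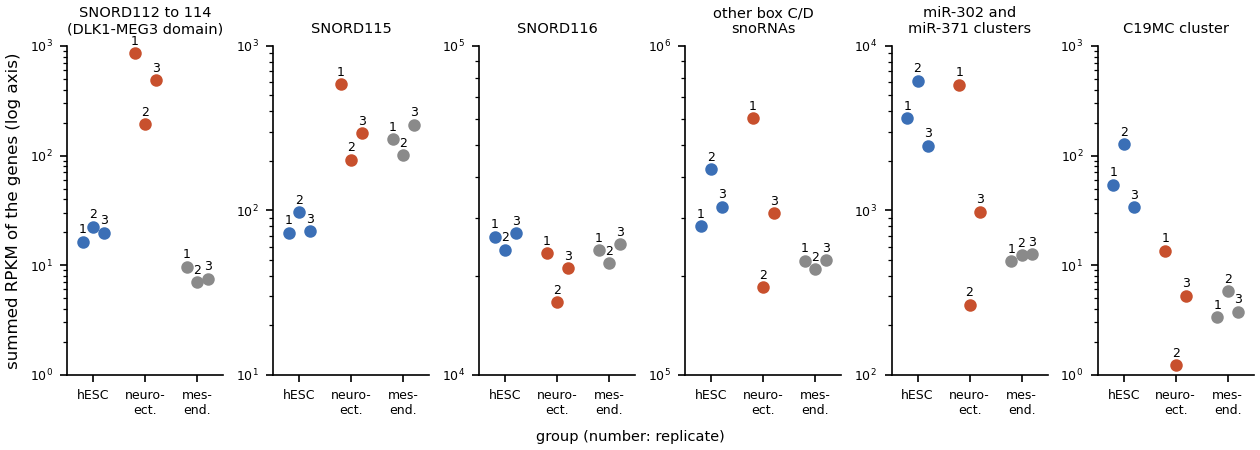
Summed RPKM (log axes) of 6 sets of small RNA genes in each of the 9 libraries, with the replicate number above each point. The snoRNAs of the DLK1-MEG3 domain are at 194 to 864 RPKM in neuroectoderm and at most 22.4 RPKM in hESC, while in the panel of the miR-302 and miR-371 clusters neuroectoderm replicate 1 (5816 RPKM) lies within the hESC range.

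The other domain, around SNRPN, is expressed from the paternal chromosome and holds the SNORD116 and SNORD115 arrays in the same direction of transcription. SNRPN itself fell from 478, 318 and 427 RPKM to 66.6, 153 and 145 RPKM (-1.81 ± 0.34, adjusted p = 0.00258), and SNURF is the same transcript row. Further along, the noncoding transcripts IPW and PWAR5 fell, IPW from 17.1, 23.8 and 19.6 RPKM to 7.94, 4.20 and 4.79 RPKM. PWAR5 fell from a mean of 48.4 to 16.6 RPKM. Of 5 single box C/D snoRNAs of the domain 2 were called lower, among them SNORD108 (57.1 to 15.4 RPKM). The summed level of the 5 overlapped, at 595, 1033 and 653 RPKM in hESC and 743, 207 and 327 RPKM in neuroectoderm. SNORD116 copies fell in 11 of 29 and rose in none, with 5 to 7 falling when hESC replicate 1 or 3 or neuroectoderm replicate 2 or 3 was left out. The most abundant copies were not called, with SNORD116-1 at 2537, 2283 and 2546 RPKM against 2721, 1804 and 1841 RPKM. SNORD115, at the far end, went the other way: 19 of 30 copies rose and none fell, and their sum was 73.1, 97.7 and 74.8 RPKM in hESC and 583, 204 and 295 RPKM in neuroectoderm. In mesendoderm that sum was 216 to 331 RPKM, and no copy differed between neuroectoderm and mesendoderm at an adjusted p under 0.05 in limma. Copies within each array are similar in sequence and may share reads, so they cannot be taken as separate measurements.

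Of 99 box H/ACA snoRNAs, which guide pseudouridylation, 17 rose and 7 fell (24.2% called, beside 44.2% of all genes). The number that rose was 9 without hESC replicate 3 or neuroectoderm replicate 3. It was 10 or 11 without hESC replicate 1 or 2 or neuroectoderm replicate 2. The number that fell was 4 without hESC replicate 1 or neuroectoderm replicate 2, and 13 without neuroectoderm replicate 1. The summed level of the box H/ACA snoRNAs was 85960, 85977 and 79842 RPKM in hESC and 132358, 126111 and 122233 RPKM in neuroectoderm, with no overlap. In mesendoderm it was 123173, 111289 and 116827 RPKM, also above every hESC library. Against mesendoderm 20 of the 99 were lower in neuroectoderm and 5 higher (24.1% and 24% in all genes). Of 24 scaRNAs, which guide modification of spliceosomal RNAs, 7 rose and none fell, with 3 rising without hESC replicate 3 or neuroectoderm replicate 3 and 13 without neuroectoderm replicate 1. SCARNA3 read 254, 285 and 218 RPKM against 610, 784 and 707 RPKM, and SNORA77 read 40.2, 27.6 and 35.7 RPKM against 111.77, 172 and 166 RPKM. The groups did not overlap for either gene. Spliceosomal small nuclear RNAs had 1 of 18 called and RNA polymerase III transcripts 1 of 9 (44.2% of all genes). The small nuclear RNAs summed to 7305, 2317 and 2664 RPKM in hESC and 1605, 5154 and 4853 RPKM in neuroectoderm. The polymerase III transcripts summed to 91116, 54597 and 44824 RPKM against 136714, 71741 and 80913.5 RPKM. With this spread between replicates, few calls do not show equal levels.

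Of 71 LINC genes tested 24 were higher and 18 lower (21.9% and 22.3% in all genes). With small RNA genes left out 15 were higher and 18 lower. With a mean of at least 2 RPKM required, 12 were higher and 7 lower. LINC00678, a transcript of hESC, read 86.9, 65.9 and 74.2 RPKM in hESC and 0, 0.01 and 0.02 RPKM in neuroectoderm (-6.24 ± 0.28, adjusted p = 4.89e-07), and ESRG, a long noncoding RNA of pluripotent cells, fell from a mean of 26.1 to 0.827 RPKM. The nuclear RNAs MALAT1, of nuclear speckles, and NEAT1, of paraspeckles, rose from 125, 177 and 136 RPKM to 567.67, 372.29 and 440 RPKM and from 1.25, 1.64 and 1.63 RPKM to 7.58, 8.67 and 8.61 RPKM. RMST, a long noncoding RNA of neural progenitors, rose from 7.80 to 19.9 RPKM and CRNDE from 1.39 to 9.56 RPKM. Antisense genes were higher in 61 of 175 and lower in 11, and in 51 and 17 with small RNA genes left out. Without neuroectoderm replicate 1, 19 were lower. Whether the counting used strand is not given in the sources used here. Reads of an antisense gene and of its partner may therefore be mixed, which was not tested. FZD10-AS1 (0.237 to 4.46 RPKM), ZNF503-AS2 (0.0933 to 3.32 RPKM) and NR2F1-AS1 (0.337 to 3.33 RPKM) all rose beside partners that rose. NR2F2-AS1 did not pass in limma in any of its 20 alternative settings (adjusted p from 0.0769 to 0.811), although its partner NR2F2 rose.

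Genes of regulated secretion were lower in 22 of 44 and higher in 7. Among all genes the shares were 22.3% and 21.9%. The stricter 2 RPKM filter left 15 lower and 3 higher. When the libraries that stood apart had their own model term, 24 were lower and 11 higher. CHGA, the granule protein chromogranin A, read 26.6, 18.9 and 29.7 RPKM in hESC and 0.16, 0.35 and 0.33 RPKM in neuroectoderm (-4.33 ± 0.19, adjusted p = 3.75e-07). SCG3, another granin, fell from a mean of 14.5 to 0.477 RPKM, UNC13A, a vesicle priming factor of synapses, from 11.5 to 0.363 RPKM, and the neuropeptide gene GAL from 12.1 to 0.04 RPKM. Cytoskeletal genes of neural cells were divided: MAP2, a microtubule-associated protein of dendrites, rose from 2.32, 2.95 and 2.55 RPKM to 89.0, 82.9 and 83.5 RPKM, and STMN3, a stathmin of neurons, fell from 25.9, 15.7 and 24.7 RPKM to 0.44, 1.35 and 1.10 RPKM. Of 11 intermediate filament genes other than keratins 3 rose and 3 fell (21.9% and 22.3% in all genes). VIM (66.9 to 235 RPKM) and NES (60.5 to 164 RPKM), intermediate filaments of neural progenitors, rose. The neurofilament genes NEFL and NEFM were lower in every alternative setting, with log2 changes of -1.03 to -0.69 and -1.61 to -0.69. The keratin KRT18 fell from 111 to 32.9 RPKM. Of 12 genes of antigen presentation and interferon response 6 fell and 2 rose (1 rose without hESC replicate 2 or 3, neuroectoderm replicate 2 or 3, or any one mesendoderm replicate). IDO1, a tryptophan-degrading enzyme, read 29.6, 30.2 and 33.2 RPKM against 0.14, 0.13 and 0.07 RPKM, and B2M, the light chain of class I molecules, was not called (17.6 and 18.2 RPKM).

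Below the 10 largest changes in each direction, the genes of rank 11 to 40 among those with non-overlapping groups held many of the surface and RNA genes described above and several others. On the rising side were the nuclear receptors NR2F1 (0.0467 to 28.7 RPKM) and NR2F2 (0.03 to 32.5 RPKM), and POU4F1, a transcription factor of sensory and dorsal neural cells, which read 0.05 RPKM in each hESC library and 14.5, 14.1 and 16.8 RPKM in neuroectoderm. WNT1, a ligand of the dorsal midline, read 0.16, 0.06 and 0.06 RPKM against 8.50, 23.6 and 21.5 RPKM, and BMP2, a ligand that NOGGIN binds, 2.28, 1.88 and 2.16 RPKM against 41.7, 54.0 and 49.3 RPKM. The endocytic receptor LRP2 (megalin), a protein of the apical neuroepithelium, rose from 0.623 to 34.4 RPKM, SULF1, which removes sulfate from heparan chains, from 1.44 to 44.99 RPKM, and LGI1, a secreted neuronal protein, from 0.0867 to 14.6 RPKM. TXNIP, a thioredoxin inhibitor that limits glucose uptake, read 4.51, 5.25 and 5.17 RPKM against 77.7, 104.60 and 108.47 RPKM.

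On the falling side the highest starting level was that of UGP2, the enzyme that makes UDP-glucose, at 220, 266 and 237 RPKM in hESC and 19.9, 15.1 and 19.3 RPKM in neuroectoderm (-3.67 ± 0.15, adjusted p = 2.56e-07). POLR3G, a stem cell isoform of an RNA polymerase III subunit, read 26.0, 30.4 and 26.7 RPKM against 0.87, 0.58 and 0.59 RPKM. PMAIP1 (NOXA), a pro-apoptotic BCL2 family protein, read 49.9, 46.1 and 50.8 RPKM against 1.45, 1.46 and 1.85 RPKM. ZSCAN10, a stem cell zinc finger factor, fell from a mean of 51.8 to 1.67 RPKM, NPTX1, a secreted pentraxin, from 25.2 to 0.433 RPKM, and IFI30, a lysosomal thiol reductase, from 41.8 to 0.927 RPKM.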

How the data were processed

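Total RNA was depleted of ribosomal RNA and sequenced with an Ion total RNA kit, per the labels' protocols. The authors deposited a table of RPKM values per RefSeq transcript, 38759 rows for 9 libraries. TopHat, TopHat2 2.0.13, Bowtie2 and hg19 are named in the submitters' processing notes. How reads were counted, with or without strand, and what was done with multiply mapped reads were not given in the sources used here. Depth was recovered from the low RPKM steps of microRNA hairpins (97.4% to 99.4% of values within 0.1 of a whole read): 40.35, 45.6 and 47.25 M reads (M: mega) in hESC replicates 1 to 3, and 40.35, 69.55 and 40.85 M reads in neuroectoderm. On 1 kb, 3 reads are 0.0431 to 0.0743 RPKM.

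limma 3.58.1 (R 4.3.3) was fitted with trend to log2(RPKM + 1) of all 9 libraries, with Benjamini-Hochberg adjustment over 14473 genes. Errors are standard errors of the log2 change. The procedure was also run on simulated data with independent noise per gene. That simulation left out the deviation that the real libraries shared, so it does not show how the calls behave under it. Genes were named by rule: in families of over 12 tested genes the 6 largest rises and falls, the 3 most abundant and the 2 most abundant not called, any member of smaller families, cell type markers, and ranks 11 to 40 of non-overlapping changes. Members, families and lists were chosen with earlier results of these data known, and family definitions were corrected after the files were read. Family counts are descriptions, with no test of the family. Alternatives were another pseudocount (0.1), no filter or 2 RPKM, 6 libraries only, 3 scalings, a replicate block, other transcript rows, and leaving out libraries. POU5F1 and HLA genes were not analysed here. Some further members of the families are not reported here.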

Additional observations from a re-analysis of the deposited data

How the results depend on the processing

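As deposited, 6392 genes differed between neuroectoderm and hESC. Over the alternatives, 1 of these counts moved by more than 1.5 times: with small RNA genes left out and the rest rescaled, 2060 genes were higher instead of 3165. Leaving out each of the 9 libraries in turn gave 5055 to 7418 genes in all, 2468 to 4051 higher and 2550 to 3367 lower, and 5562 to 7498 genes in the test of neuroectoderm against mesendoderm. Of 900 named genes called in the comparison, none changed sign under any alternative. They were called on these same libraries, and many were named for large or non-overlapping changes. Their kept sign was therefore largely set by that choice and says little about stability. In each alternative that tested all 900, at least 786 kept their call, the fewest without hESC replicate 3. With a pseudocount of 0.1 RPKM 2 lost it, and with only the 6 libraries fitted 91 did. The deviations of same-numbered libraries had correlations of -0.62, -0.74 and 0.40. Since 1 library of each group stood apart, these values cannot show whether replicate numbers pair the samples. With the replicate block 2773 genes were higher and 2870 lower, and 65 of the 900 lost their call. Low depth limits hairpins and snoRNAs most, where 3 reads on 80 bases are 0.539 to 0.929 RPKM.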
